A study of Mus musculus with 16 samples.

Results

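The D cyclins Ccnd1, Ccnd2 and Ccnd3, their partner kinases Cdk4 and Cdk6, the kinase inhibitors Cdkn1b, Cdkn2c and Cdkn2d, and the pocket proteins Rb1 and Rbl2 were followed in mouse pre-B cells after pre-B cell receptor signalling was switched on. The genes were picked by name as the core of the pathway that governs the step from G1 into S phase. All 10 were found among the 38918 features of the count tables. Pre-B cells are the B cell precursors that carry a rearranged heavy chain and divide before they rearrange a light chain.

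Every library, the control included, came from Blnk-/- pre-B cells that overexpressed a retroviral BLNK-ERt2 fusion. BLNK is the adaptor that links the receptor to its downstream enzymes, and the ERt2 domain of the oestrogen receptor makes the fusion inducible by tamoxifen. The groups were control cells and cells stimulated for 0.5, 1.5 or 5 h, and the study asked which genes the receptor regulates. The model is limited by a fusion expressed from a retrovirus in cells without their own Blnk, and the strain and age of the mice and the treatment of the control with vehicle are not stated. Each group is 1 library, sequenced in 4 lanes under 1 index, so no replicate spread exists and no p-value is given. In bulk RNA of this kind, a change in the mix of cells and a change of RNA per cell cannot be told apart.

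D cyclins bind Cdk4 or Cdk6, and the active complexes phosphorylate the pocket proteins, which then release E2F transcription factors and allow genes of DNA replication to be transcribed. INK4 inhibitors, here p18 from Cdkn2c and p19 from Cdkn2d, bind Cdk4 and Cdk6 and keep cyclin away, whereas p27 from Cdkn1b acts on cyclin-bound complexes, chiefly those of Cdk2. In mouse pre-B cells, cyclin D3 is the D cyclin known to be required for proliferation, and the end of the dividing stage is accompanied by the start of light chain rearrangement.

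Libraries held 34533362 total exon reads in the control, 33864004 at 0.5 h, 32631061 at 1.5 h and 30746189 at 5 h. Levels are given as CPM, reads of a gene per 1000000 total exon reads of its library. Pre-B markers, of which 9 were found, summed to between 9945 and 12200 CPM, the highest value in the control and the lowest at 5 h. The 7 T and NK cell markers summed to at most 1.14 CPM, with Cd4 and Ncr1 at 0 reads, and the 5 stromal and endothelial markers to at most 0.945 CPM, with Col3a1 and Cxcl12 at 0 reads. The 5 erythroid and megakaryocyte markers summed to between 10.9 and 12.4 CPM, mostly Hbb-bt, a haemoglobin chain. The 6 myeloid markers summed to 72.4 CPM in the control, 69.4 at 0.5 h, 61.7 at 1.5 h and 38.3 at 5 h, nearly all of it Itgam, the CD11b integrin chain, with Ly6g at 0 reads and the other 4 at or below 1.62 CPM in every library.

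Among the 10 genes, Cdk6 was progressively higher at each time, Ccnd3 was lower at 5 h, and Cdkn1b and Rbl2 were lower at 1.5 h and back near control at 5 h. Cdk4 and Rb1 stayed close to their control values, and Ccnd1 was barely detected. A gene was called at 2-fold when its ratio, after adding 1 CPM to both libraries, was at least 2-fold and it had at least 5 CPM in the higher library. A second rule of 1.5-fold was used in the same way. Folds in the text are plain CPM ratios, and their exact Clopper-Pearson 95% intervals cover counting error only. Lanes are repeat reads of 1 library, so ranges over lanes, overlapping or not, show sequencing noise and no spread between libraries of a condition.

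**Figure D1:**
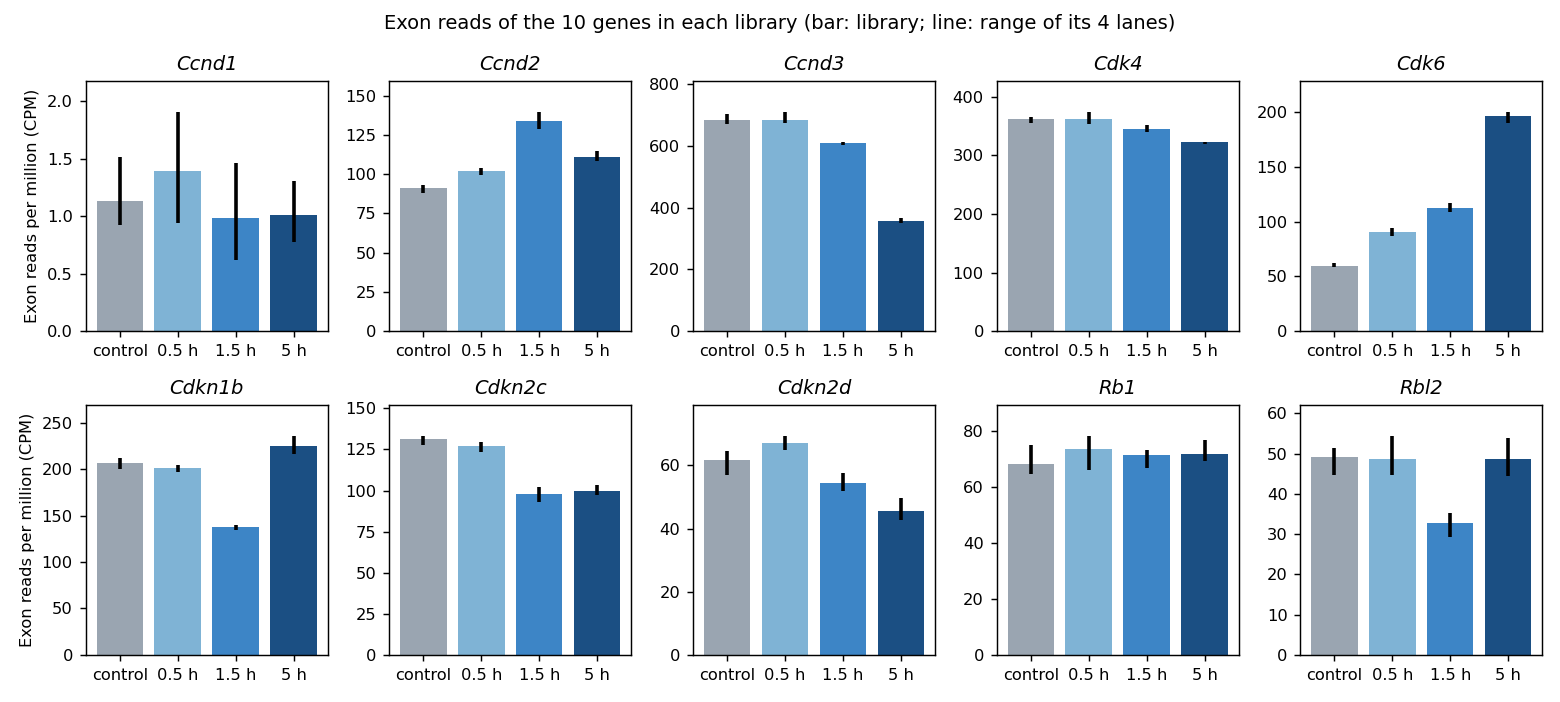
CPM of each of the 10 genes (vertical axes, from 0, with their own scale) in the control, 0.5 h, 1.5 h and 5 h libraries (horizontal axes). Bars are library values and lines the range over the 4 lanes of the library. Cdk6 stood at 59.6, 90.4, 113 and 196 CPM, and Ccnd3 at 685, 685, 608 and 358 CPM, with no overlap between the lanes of the control and of 5 h for either gene.

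With 9 of the 10 genes above the floor of 5 CPM, the 2-fold rule called 0 of 9 higher or lower at 0.5 h and at 1.5 h against control. It called 0.284% of all genes above the floor higher and 0.0210% lower at 0.5 h, and 0.641% higher and 0.210% lower at 1.5 h. At 5 h it called Cdk6 higher and none lower, where 0.336% of all genes were called higher and 0.399% lower. The 1.5-fold rule called Cdk6 higher at 0.5 h, where it called 0.673% of all genes higher and 0.147% lower. That call, at a log2 ratio of 0.59, ended with a pseudocount of 5 CPM (0.56), on unique reads (0.58), on total gene reads (0.41), on exon-exon reads (0.45) and without lane 4 (0.56). At 1.5 h it called Cdk6 higher and Cdkn1b lower, against 3.37% higher and 1.99% lower among all genes. At 5 h it called Cdk6 higher and Ccnd3 lower, against 2.21% higher and 2.98% lower.

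Consecutive times were compared as well. Between 0.5 and 1.5 h the 1.5-fold rule called none of the 9, against 1.76% of all genes higher and 1.84% lower. It called Cdkn1b lower there on exon-exon reads (log2 ratio -0.65) and Rbl2 lower without lane 4 (-0.63). Between 1.5 and 5 h it called Cdk6 and Cdkn1b higher and Ccnd3 lower, against 1.30% higher and 2.12% lower. It also called Rbl2 higher there without lane 1 (0.59) or lane 4 (0.60) and Cdkn2d lower on exon-exon reads (-0.67), and it no longer called Cdk6 on total gene reads (0.40). The median log2 ratio of the 10 genes against control was 0.05 at 0.5 h, -0.14 at 1.5 h and -0.05 at 5 h. Over all genes that reached 1 CPM in either library the medians were -0.00, -0.01 and -0.00. The comparisons with control share the control library and are not independent of each other.

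Levels of different genes were set side by side per kilobase of exon, with the exon lengths of the tables. In the control, Cdk4 (112 CPM per kilobase) and Ccnd3 (111) led, and their lanes overlapped. Cdkn2c (48.9), Cdkn2d (48.4) and Cdkn1b (45.5) followed as a group in which neighbours overlapped over lanes. Ccnd2 (16.0) and Cdk6 (15.9) came next and also overlapped, ahead of Rb1 (11.3), Rbl2 (7.05) and Ccnd1 (0.294). Thus, on the counted exons, the kinase and the cyclin at the top stood at several times the level of their closest relatives. The counted exons are shorter than in the GENCODE vM21 annotation for Cdk6 (3735 against 13989 bases), Ccnd2 (5701 against 9409) and Ccnd3 (6151 against 8775), but not for Cdk4 (3249 in both). The effect of this on levels and shares per kilobase was not tested. At 5 h Cdk4 (99.2 CPM per kilobase) led alone, Ccnd3 (58.2) was the second, and Cdk6 (52.5) had moved from rank 7 to rank 3, where its lanes overlapped those of Cdkn1b (49.4).

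The D cyclins were dominated by Ccnd3, which encodes cyclin D3 (chr17:47505051-47599691, mm10). It stood at 685 CPM in the control, 685 at 0.5 h, 608 at 1.5 h and 358 at 5 h, and in the same order its lanes ranged from 672 to 705, 674 to 709, 602 to 614 and 352 to 366 CPM. The control and 0.5 h libraries were alike, 1.5 h was slightly lower, and 5 h stood well below the other libraries. At 5 h Ccnd3 was 1.91-fold lower than in the control (95% interval 1.87 to 1.96), a log2 ratio of -0.93 that 49 of 9520 genes reached or passed. It was 1.70-fold lower at 5 h than at 1.5 h (1.66 to 1.74). About 78% of its control reads were uniquely placed, and on unique reads it was 1.88-fold lower at 5 h (1.83 to 1.92).

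Itgam of the myeloid list moved with Ccnd3, at 69.0 CPM in the control and 35.9 CPM at 5 h. The other measured myeloid markers were Lyz2, at 1.48 and 1.07 CPM, and Mpo, at 1.51 and 1.01 CPM. Their ratios of 5 h to control were 0.727 (0.454 to 1.15) and 0.670 (0.415 to 1.06), so no difference was detectable for either. All 3 measured genes of that list thus had a log2 ratio below 0 at 5 h, while Ly6g had 0 reads and Csf1r and Elane stayed at or below 0.276 CPM. Whether myeloid cells were present, and whether they had any part in the Ccnd3 result, was not tested. Pre-B markers also summed to less at 5 h than in the control, as given above.

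Ccnd2, the gene of cyclin D2 (chr6:127125779-127151048), stood at 91.4 CPM in the control, 102 at 0.5 h, 134 at 1.5 h and 111 at 5 h. It was highest at 1.5 h, and the 4 lanes of that library, at 129 to 139 CPM, lay above all lanes of the other libraries. Its ratio to control was 1.46 at 1.5 h (1.39 to 1.53) and 1.21 at 5 h (1.16 to 1.28). The log2 ratio of 0.54 at 1.5 h lay just outside the 1.5-fold rule, which lies at 0.585 on this scale. Just inside it were Cdk6 at 0.5 h (0.594) and Cdkn1b at 1.5 h (-0.589).

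Ccnd1, the gene of cyclin D1 (chr7:144929931-144939869), had 39 reads in the control, 47 at 0.5 h, 32 at 1.5 h and 31 at 5 h. This equals 1.13, 1.39, 0.981 and 1.01 CPM, and no read spanned an exon junction in any library. At this depth no difference was detectable: the ratio of 5 h to control was 0.893 with an interval of 0.539 to 1.47.

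Summed per kilobase, the D cyclins stood at 128 CPM per kilobase in the control, 130 at 0.5 h, 123 at 1.5 h and 77.9 at 5 h. Ccnd3 made up 87.2% of this sum in the control, 86.0% at 0.5 h, 80.7% at 1.5 h and 74.7% at 5 h. The share of Ccnd2 went from 12.6% in the control to 25.0% at 5 h. The ratio of Ccnd3 to Ccnd2 was thus 6.94 in the control and 2.98 at 5 h, and the sum was lower at 5 h although Ccnd2 was above its control level.

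**Figure D2:**
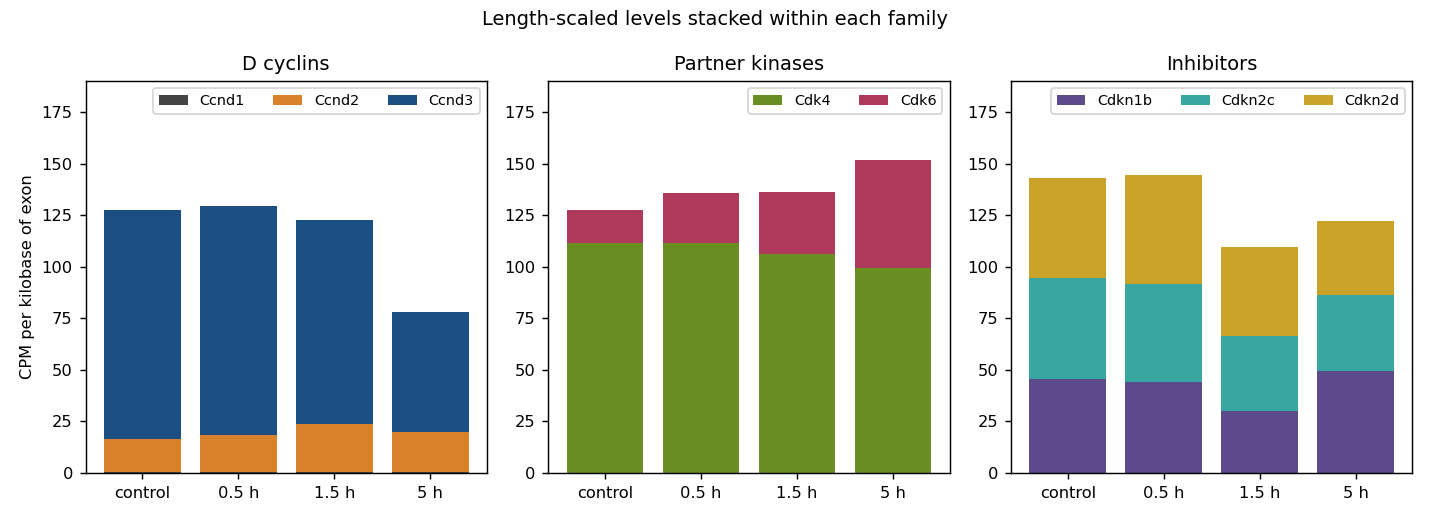
Length-scaled levels (CPM per kilobase of exon, vertical axes, from 0) in the 4 libraries (horizontal axes), stacked by gene for the D cyclins, the partner kinases and the inhibitors. The D cyclin stack is 128 CPM per kilobase in the control and 77.9 at 5 h, and the kinase stack is 127 and 152, with Cdk6 taking 12.5% and 34.6% of it; Ccnd1 is too low to see.

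Of the partner kinases, Cdk6 (chr5:3343893-3523218) had the largest change of the 10 genes. It stood at 59.6 CPM in the control, 90.4 at 0.5 h, 113 at 1.5 h and 196 at 5 h. In this order its lanes lay at 58.6 to 61.9, 86.9 to 94.4, 109 to 117 and 190 to 200 CPM. Each later library was higher than the one before, and no lane of one time overlapped a lane of another. The ratio of Cdk6 to control was 1.52 after 0.5 h (1.43 to 1.61). It reached 1.89 after 1.5 h, or 1.88 on uniquely placed reads with an interval of 1.78 to 1.99, and 3.29 after 5 h with an interval of 3.13 to 3.46. At 5 h its log2 ratio of 1.70 was reached by 6 of 9520 genes, Cdk6 included.

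From 1.5 to 5 h Cdk6 was 1.74-fold higher (1.67 to 1.81), and from 0.5 to 1.5 h 1.25-fold (1.19 to 1.31). About 97% of its reads were uniquely placed. Reads that span an exon junction numbered 217 in the control, 294 at 0.5 h, 336 at 1.5 h and 553 at 5 h, and by these Cdk6 was 2.89-fold higher at 5 h (2.47 to 3.40). The exons that the tables count for Cdk6 add up to 3735 bases, against 13989 bases in the GENCODE vM21 annotation. The counted region begins 2408 bases after the annotated start and ends 7790 bases before the annotated end, so reads from there are not in these values.

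Cdk4 (chr10:127063534-127067920), the other catalytic partner, stood at 362 CPM in the control, 362 at 0.5 h, 345 at 1.5 h and 322 at 5 h. The 5 h library was the lowest, 1.12-fold below the control (1.10 to 1.15), and its lanes, at 320 to 323 CPM, did not overlap those of the control at 356 to 365. Cdk4 shares 641 bases at its end with Tspan31 on the opposite strand, and since the strand of counting is not stated, reads of the pair there cannot be told apart. The sum of both kinases per kilobase was 127 CPM per kilobase in the control, 136 at 0.5 h, 136 at 1.5 h and 152 at 5 h. Cdk6 made up 12.5, 17.9, 22.1 and 34.6% of it in this order, and the ratio of Cdk4 to Cdk6 went from 6.99 in the control to 1.89 at 5 h.

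The promoters of the kinases are shown because one of the genes was higher at every time and the other was not. Promoter windows came from RefSeq (GRCm38.p6), which matched 7 of the 10 genes, and the 250 bases before each RefSeq start were searched on both strands for 7 motifs. Capitals mark every match to any of these motifs. The windows are chr5:3343643-3343892, plus strand, for Cdk6 and chr10:127063285-127063534, plus strand, for Cdk4, written 5′ to 3′.
Cdk6: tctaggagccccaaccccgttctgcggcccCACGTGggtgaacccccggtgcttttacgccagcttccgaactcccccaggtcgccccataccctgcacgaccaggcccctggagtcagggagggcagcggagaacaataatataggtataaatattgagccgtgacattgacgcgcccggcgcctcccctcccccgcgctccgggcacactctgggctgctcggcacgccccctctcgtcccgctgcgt
Cdk4: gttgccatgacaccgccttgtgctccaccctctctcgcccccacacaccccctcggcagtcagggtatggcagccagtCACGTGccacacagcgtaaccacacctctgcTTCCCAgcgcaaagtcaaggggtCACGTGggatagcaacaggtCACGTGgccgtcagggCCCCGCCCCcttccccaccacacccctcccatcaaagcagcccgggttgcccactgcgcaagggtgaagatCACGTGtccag

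The Cdk6 window holds 1 E-box (CACGTG), the site type bound by MYC and its relatives, from 220 to 215 bases before the RefSeq start. That window ends just before the counted region, which begins 2408 bases after the GENCODE vM21 start. It thus lies inside the Cdk6 gene of that annotation. For Cdk4 the counted and GENCODE starts are the same, so the windows of the kinases are unlike in this. The Cdk4 window holds 4 E-boxes, 1 GC box (GGGGCGGGG, printed as its reverse complement) and 1 Ikaros core (TGGGAA, likewise). E-boxes occur in 6.02% of 32817 mouse promoter windows of this length, GC boxes in 10.4% and Ikaros cores in 21.6%. The other motifs searched were forkhead (GTAAACA, in 3.16% of windows), E2F (TTTCCCGC or TTTGGCGC, 1.30%), EGR (GCGTGGGCG, 0.536%) and STAT (TTCNNNGAA, 7.01%). None of these 4 has its letters in either window, and no match in them overlapped another. A match is a description of letters and not of binding.

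Among the inhibitors, Cdkn1b (chr6:134920401-134925513), the gene of p27, stood at 207 CPM in the control, 201 at 0.5 h, 137 at 1.5 h and 225 at 5 h. The 1.5 h library alone was low: its lanes, at 135 to 140 CPM, lay below all lanes of the other libraries, which began at 197. Cdkn1b was 1.51-fold lower at 1.5 h than in the control (1.45 to 1.57) and 1.64-fold higher at 5 h than at 1.5 h (1.58 to 1.70), a rise that 55 of 9453 genes reached. The call at 1.5 h sits at the edge of the 1.5-fold rule and ended with TMM factors (log2 ratio -0.57) or with DESeq2 size factors (-0.57). All of its reads were uniquely placed.

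Cdkn2c and Cdkn2d, the INK4 genes followed here, took another course. Cdkn2c (chr4:109660876-109667189) stood at 131 CPM in the control, 127 at 0.5 h, 97.6 at 1.5 h and 99.6 at 5 h. It was 1.35-fold lower at 1.5 h (1.29 to 1.41) and 1.32-fold lower at 5 h (1.26 to 1.38), so unlike Cdkn1b it had not come back by 5 h, where its ratio to 1.5 h was 1.02 (0.970 to 1.07). Cdkn2d (chr9:21288463-21291209) stood at 61.5 CPM in the control, 66.9 at 0.5 h, 54.4 at 1.5 h and 45.4 at 5 h, 1.36-fold lower at 5 h (1.27 to 1.45). Neither passed the 1.5-fold rule at any time.

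Per kilobase, the sum of Cdkn2c and Cdkn2d was 97.3 CPM per kilobase in the control, 100.1 at 0.5 h, 79.1 at 1.5 h and 72.8 at 5 h. The ratio of the kinase sum to this sum was 1.31 in the control, 1.35 at 0.5 h, 1.72 at 1.5 h and 2.08 at 5 h. Other INK4 genes are not in it. Cdkn2b stood higher after stimulation, at 18.9, 26.3, 26.3 and 27.3 CPM in the same order, and Cdkn2a stood at 25.3, 25.8, 23.5 and 21.3 CPM. The Cdkn2a counts are per gene and do not separate INK4a from ARF, the other product of that gene. The ratio of the D cyclin sum to Cdkn1b went the other way at the last time, at 2.80, 2.93, 4.06 and 1.58 in the same order. These are ratios of RNA levels and say nothing of protein.

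The pocket protein genes among the 10, Rb1 and Rbl2, differed from each other. Rbl1, a further pocket protein gene, was listed with the E2F factors and stood at 99.5, 97.0, 102 and 96.6 CPM from control to 5 h. Rb1 (chr14:73183673-73325822), the retinoblastoma gene, stood at 68.3 CPM in the control, 73.6 at 0.5 h, 71.4 at 1.5 h and 71.7 at 5 h, and its lanes overlapped across all 4 libraries. Only 55.1 to 60.0% of its reads were uniquely placed. On these the ratio of Rb1 to control was 1.16 at 0.5 h (1.08 to 1.25), 1.10 at 1.5 h (1.02 to 1.18) and 1.04 at 5 h (0.958 to 1.12). On total gene reads its log2 ratio at 5 h was 0.27. Rbl2 (chr8:91070057-91123844), the gene of p130, which with E2F4 represses cell cycle genes in resting cells, stood at 49.1, 48.7, 32.7 and 48.6 CPM. Its 1.5 h lanes, at 29.3 to 35.2 CPM, lay below all other lanes, which began at 44.4. Rbl2 was 1.50-fold lower at 1.5 h than in the control (1.39 to 1.62), with a log2 ratio of -0.57 just outside the 1.5-fold rule, and 1.49-fold higher at 5 h than at 1.5 h (1.37 to 1.61). Unique reads made up 71.9 to 77.3% of its reads, and on these it was 1.40-fold lower at 1.5 h (1.28 to 1.54). Rbl2 overlaps Aktip on the opposite strand by 12061 bases, and Rb1 overlaps Rcbtb2 by 24171.

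Cdkn1b and Rbl2 thus shared the dip at 1.5 h and the return at 5 h, and their promoter windows are shown for that reason. They are chr6:134920151-134920400 and chr8:91069807-91070056, both on the plus strand, with capitals marking matches to any of the 7 motifs.
Cdkn1b: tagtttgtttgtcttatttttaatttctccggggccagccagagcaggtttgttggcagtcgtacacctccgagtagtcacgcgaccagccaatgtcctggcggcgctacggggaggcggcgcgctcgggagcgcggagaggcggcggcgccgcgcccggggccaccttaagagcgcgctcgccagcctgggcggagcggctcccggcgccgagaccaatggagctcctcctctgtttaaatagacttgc
Rbl2: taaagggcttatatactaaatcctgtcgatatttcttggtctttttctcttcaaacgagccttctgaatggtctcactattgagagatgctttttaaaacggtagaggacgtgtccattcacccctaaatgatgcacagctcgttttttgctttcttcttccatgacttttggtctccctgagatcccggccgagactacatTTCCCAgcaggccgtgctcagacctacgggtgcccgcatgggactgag

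The Cdkn1b window has none of the 7 motifs, and the Rbl2 window has 1 Ikaros core, from 48 to 43 bases before the start, a motif of 21.6% of all windows. The letters of the forkhead motif, the site type of FOXO factors, are in neither window. Among the other windows at hand, that of Cdkn2d holds 1 Ikaros core, an upstream window of Ccnd3 holds 1 forkhead match and 1 GC box, a second Ccnd3 window holds 1 GC box, and 1 window of Cdkn2c holds 1 EGR match. GC content ran from 46.8% in the Rbl2 window to 66% in that of Cdk6 among the 4 sequences shown.

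Reads outside the counted exons but within the gene gave a second readout. Such reads come from RNA that is not yet spliced, and also from exons that the tables do not list. Over all genes they numbered 18.9 per 100 exon reads in the control, 18.8 at 0.5 h, 19.6 at 1.5 h and 20.8 at 5 h. They are given here per 1000000 total exon reads.

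Outside its exons Cdk6 stood at 46.2 CPM in the control, 50.7 at 0.5 h, 94.9 at 1.5 h and 80.1 at 5 h. These reads were highest at 1.5 h, whereas those in exons were highest at 5 h. Their ratio to control was 1.10 after 0.5 h (1.02 to 1.18), 2.06 after 1.5 h (1.93 to 2.18) and 1.73 after 5 h (1.63 to 1.85). From 1.5 to 5 h they were 1.19-fold lower (1.12 to 1.25) while exon reads were 1.74-fold higher. On uniquely placed reads alone the ratios to control were 1.14, 2.33 and 1.92. Scaled to the library's own total outside exons they were 1.10, 1.98 and 1.58, the last with an interval of 1.48 to 1.69.

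Ccnd3 showed the opposite arrangement, with 86.0 CPM outside its exons in the control, 91.4 at 0.5 h, 69.2 at 1.5 h and 92.6 at 5 h. The 1.5 h library was the lowest and 5 h was again at the control's level, while exon reads were lowest at 5 h. At 5 h reads outside exons were 1.08-fold above control (1.02 to 1.13), and when scaled to the library's own total outside exons they were 0.982-fold (0.932 to 1.03). Per 100 exon reads of Ccnd3 they numbered 12.6 in the control and 25.9 at 5 h. Bysl lies on the opposite strand over the last 361 bases of the Ccnd3 region, and its exon reads numbered 1320, 1250, 2014 and 1602 in the 4 libraries.

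Rbl2 had 8.46, 6.47, 4.93 and 8.55 CPM outside its exons, low at 1.5 h as in its exons, where they were 1.71-fold below control (1.41 to 2.09). Ccnd2 had 2.78, 4.05, 4.66 and 2.50 CPM, with 1.68-fold more than control at 1.5 h (1.29 to 2.19). Cdkn2c had 9.41, 7.35, 7.08 and 9.30 CPM, so that at 5 h these reads were at 0.988 of control (0.840 to 1.16) while exon reads were 1.32-fold lower. Rb1 had 67.4, 70.1, 72.9 and 94.5 CPM, 1.40-fold higher at 5 h (1.33 to 1.48), but only 17.5 to 19.5% of these reads were uniquely placed. Scaled to the library's own total outside exons, Rb1 was 1.28-fold higher at 5 h (1.21 to 1.35). Ccnd1, Cdk4, Cdkn1b and Cdkn2d had at most 60 reads outside exons in any library.

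**Figure D3:**
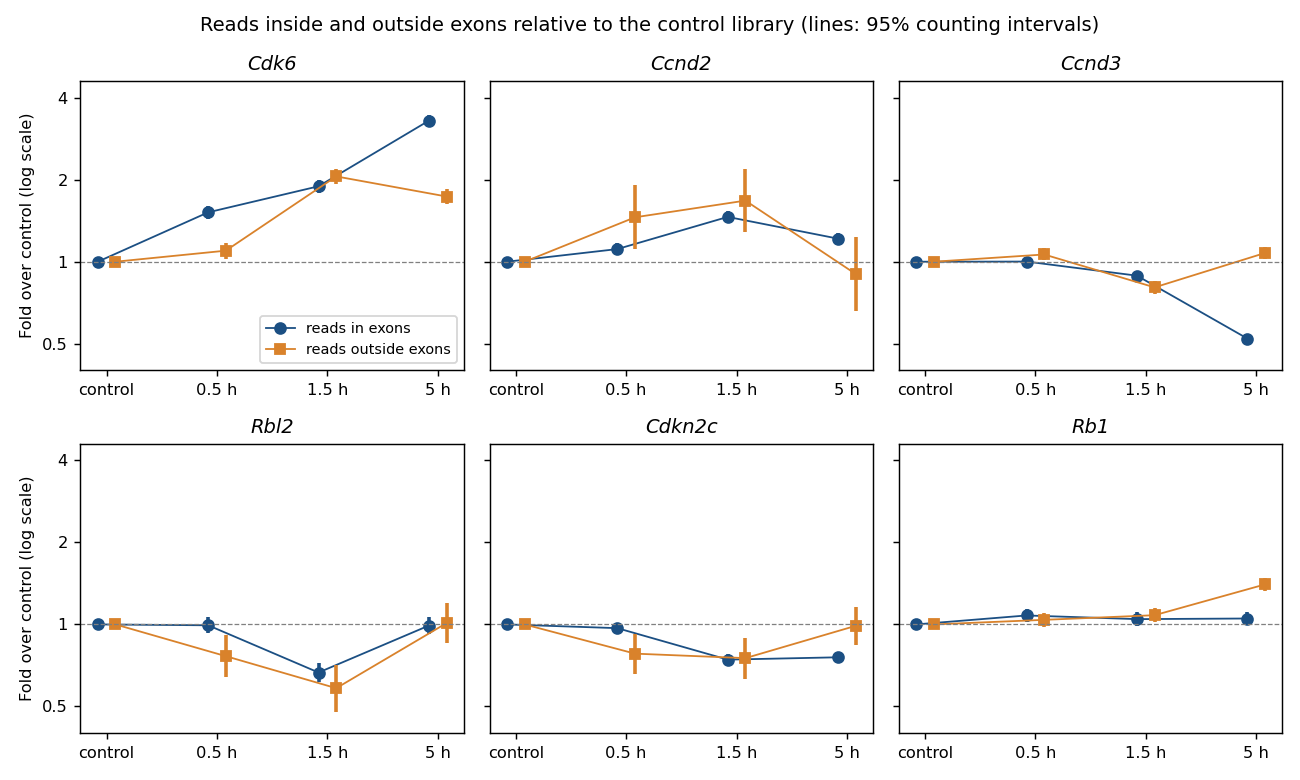
Fold over the control library (vertical axes, log scale) of reads in exons (circles) and outside exons (squares) for 6 genes in the 4 libraries (horizontal axes), with 95% counting intervals as vertical lines, hidden by the marker where narrow. For Cdk6 the reads outside exons peak at 1.5 h with 2.06-fold while exon reads reach 3.29-fold at 5 h, and for Ccnd3 the readouts part at 5 h.

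The rest of the pathway was read from lists of 6 kinds, of which 80 of 81 genes were found. Of the other CDK inhibitors, 4 of 5 were measured at 1 CPM or more, and none was called at 2-fold at any time. Against control, the 2-fold rule called at most 0.641% of all genes above the floor in either direction, and the 1.5-fold rule at most 3.37%. These shares stand beside the calls of every list here, and a list without calls is near them. The last list, of upstream factors, had more calls than these shares, as given there. Cdkn2b, the gene of the INK4 inhibitor p15, stood at 18.9 CPM in the control and 27.3 CPM at 5 h, 1.44-fold higher (1.30 to 1.60). It was already 1.39-fold higher at 0.5 h (1.26 to 1.54). Cdkn3, a phosphatase that acts on Cdk2, went from 10.2 CPM to 6.15 CPM at 5 h, 1.66-fold lower (1.39 to 1.99), and Cdkn2a stood between 21.3 and 25.8 CPM. Of the 3 above the floor at 5 h, the 1.5-fold rule called 1 lower, Cdkn3, against 2.98% of all genes.

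Cyclins E and A with Cdk2, Cdk1 and the Cdk-activating kinase made a list of 9, of which 0 were called at 2-fold. At 0.5 h 6 of 9 had a log2 ratio above 0 and 3 below, and the same numbers held at 1.5 h. At 5 h 2 were above and 7 below, with a median of -0.19. Of all genes from 1 CPM, 49.1% were above 0 at 0.5 h, 47.4% at 1.5 h and 49.3% at 5 h. Ccne1 and Ccne2, the cyclins that follow cyclin D in G1, were 1.46-fold (1.33 to 1.60) and 1.47-fold lower (1.33 to 1.63), and Mnat1, a subunit of the Cdk-activating kinase, was 1.56-fold lower (1.45 to 1.69), the only one of this list past the 1.5-fold rule. Cdc25a, the phosphatase that activates Cdk2, was 1.33-fold higher at 1.5 h (1.26 to 1.40) and 1.11-fold lower at 5 h (1.05 to 1.18). Cdk2 was 1.23-fold lower at 5 h (1.17 to 1.29), and Cdk7 1.21-fold higher (1.13 to 1.30).

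Of the 17 genes of E2F factors and their complexes, 0 were called at 2-fold. At 0.5 h 11 were above and 6 below 0, and at 1.5 h 7 above and 10 below. At 5 h 6 were above and 11 below, with a median of -0.06, beside the same 49.3% of all genes above 0. E2f2, an activator E2F, stood at 152 CPM in the control, 153 at 0.5 h, 104 at 1.5 h and 100 at 5 h, 1.51-fold lower at 5 h (1.45 to 1.58). It was the only 1 of the 17 past the 1.5-fold rule, at 5 h, where 2.98% of all genes were called lower. E2f8, a repressor, was 1.48-fold lower at 5 h (1.41 to 1.55), E2f1 1.34-fold lower (1.23 to 1.46) and E2f7 1.27-fold lower (1.19 to 1.35). E2f3 was 1.28-fold higher at 1.5 h (1.20 to 1.36) and Lin54, a subunit of the DREAM complex, 1.33-fold (1.23 to 1.43).

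Of 20 target genes of E2F, which encode the replication machinery, 15 were above and 5 below 0 at 0.5 h, with a median of 0.02. At 1.5 h 10 were above and 10 below, and at 5 h 2 above and 18 below, with a median of -0.17 at 5 h. Of all genes from 1 CPM, 49.1% were above 0 at 0.5 h and 49.3% at 5 h. None of the targets was called at 2-fold, and Uhrf1, a partner of the maintenance DNA methyltransferase, was called at 1.5-fold: it went from 437 CPM in the control to 272 at 5 h, 1.61-fold lower (1.57 to 1.65). Mcm5, a helicase subunit, was 1.39-fold lower at 5 h (1.35 to 1.43), Rrm2, a ribonucleotide reductase subunit, 1.38-fold (1.34 to 1.42) and Cdc6, a loader of the helicase, 1.37-fold (1.27 to 1.48). Mcm3 was 1.22-fold lower (1.19 to 1.25) and Cdt1 1.17-fold lower (1.07 to 1.29).

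Genes for the turnover of D cyclins and p27 made the next list. Of 18 listed, 17 were found and 15 measured, and the medians were -0.01, -0.03 and -0.03 at the 3 times. None was called at either threshold. This is near the shares of all genes called in either direction, at most 0.641% at 2-fold and 3.37% at 1.5-fold. Cul1, the scaffold of the SCF ligase, was 1.15-fold higher at 5 h (1.10 to 1.20). Gsk3b and Dyrk1a, kinases that mark cyclin D for degradation, were 1.18-fold (1.14 to 1.22) and 1.19-fold higher (1.16 to 1.23) at 1.5 h. Dyrk1b was 1.34-fold higher at 0.5 h (1.16 to 1.55), Rchy1 1.18-fold lower at 5 h (1.09 to 1.27), and Fbxo31 stood between 5.91 and 7.04 CPM.

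**Figure D4:**
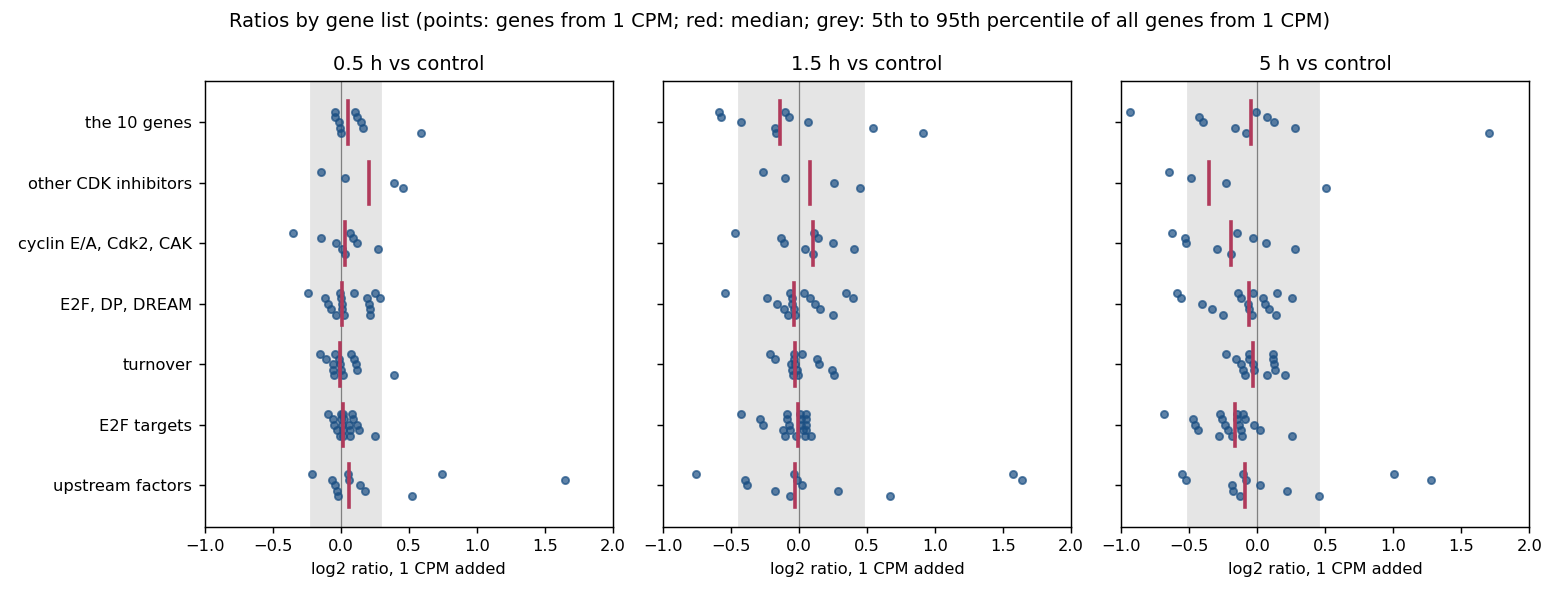
Log2 ratios against control after adding 1 CPM (horizontal axes) of the genes of each list (rows, points) at 0.5, 1.5 and 5 h, with red lines for list medians and grey bands for the 5th to 95th percentile of all genes from 1 CPM. At 5 h the E2F target median lies at -0.17, and Cdk6 at 1.70 and Ccnd3 at -0.93 are the outermost of the 10 genes.

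Factors known to act on these genes were the last list, of 12, all measured. Myc, whose protein binds E-boxes, stood at 293, 923, 875 and 341 CPM in the control, at 0.5, 1.5 and 5 h. Irf4 stood at 142, 239, 445 and 347 CPM and Ikzf3, which encodes Aiolos, at 115, 127, 183 and 232. Myc was called at 2-fold at 0.5 and 1.5 h, Irf4 at 1.5 and 5 h and Ikzf3 at 5 h, where its call ended with a pseudocount of 5 CPM, on unique reads and without lane 2. Of the 12, the 2-fold rule thus called 1 higher at 0.5 h, 2 at 1.5 h and 2 at 5 h. Of all genes it called 0.284, 0.641 and 0.336% higher in this order. The 1.5-fold rule called 2 higher at 0.5 h, 3 higher and 1 lower at 1.5 h, and 2 higher at 5 h. Its shares of all genes were 0.673% higher, 3.37% higher and 1.99% lower, and 2.21% higher. Foxo1 was 1.70-fold lower at 1.5 h (1.63 to 1.77) and 1.44-fold lower at 5 h (1.38 to 1.50). Pax5 was 1.44-fold higher at 0.5 h (1.40 to 1.48) and Irf8 1.49-fold lower at 5 h (1.37 to 1.62).

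Genes whose course was nearest to that of Cdk6 and Ccnd3 were found by Euclidean distance over the 3 log2 ratios to control, among 9054 genes with at least 5 CPM in any library. Nearest to Cdk6 were Tmtc1 (distance 0.26), which stood at 9.93 CPM in the control and 31.1 at 5 h, Zfp771 (0.32), from 7.04 to 21.7 CPM, and Zbtb9 (0.32), from 2.17 to 7.29 CPM with only 9.95% of reads uniquely placed. Nearest to Ccnd3 were Tfeb (0.08), from 70.5 to 37.6 CPM, Itgam (0.09) and Dock9 (0.09), from 46.1 to 24.3 CPM. Tfeb lies on the same chromosome as Ccnd3, at chr17:47737030-47792419. With 3 ratios from 4 libraries that share 1 control, likeness is a description of these libraries only.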

How the data were processed

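Per the labels' protocols, pre-B cell RNA was isolated with the PeqGOLD TriFast method, enriched for poly(A), prepared with TruSeq or NEBNext reagents and read on a HiSeq 2500. The kit of each library is not stated. The submitters' processing notes name CASAVA 1.8.2 and the build mm10. The aligner, counting program, annotation and strand were not given in the sources used here. Per the file headers, the authors deposited counts of total and unique exon reads, gene reads and exon-exon reads per gene and lane, not normalized. All 3 tables list 38918 features, hold the same control counts and left 0 columns unmatched.

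The 16 samples are 4 lanes of 4 libraries, which were summed. Lanes held 7631791 to 8709054 exon reads. Among genes from 20 reads, lanes of a library gave a chi-square of 1.24 to 1.32 per degree of freedom on total exon reads, against 0.992 to 1.01 where only unique reads were used. Thus total reads varied between lanes by more than sampling noise, and intervals are likely narrow for genes with many reads that are not unique, such as Rb1 and Rbl2. The reads carry no molecular identifiers and can repeat a molecule, so intervals cover counting error only. A zero allows 3 counts, or 0.0869 to 0.0976 CPM.

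Reads outside exons are total gene reads minus total exon reads. Levels per kilobase use the exon lengths of the tables. The text names the 10 genes and, of each list, the genes past the 2-fold rule against control with up to 6 others of the largest ratio from 5 CPM, and the 3 nearest neighbours of Cdk6 and Ccnd3, predicted genes left out. Rbl1 is named besides, as a pocket protein gene outside the 10. Marker genes are given as lists. The 10 genes, lists, rules and alternatives were chosen with earlier results of these data known. Alternatives were TMM factors of edgeR 4.0.16, DESeq2 1.42.0 size factors, pseudocounts of 0.1 and 5 CPM, other floors and folds, unique, gene and exon-exon reads, other scalings of reads outside exons, shares without length, and each lane left out. Scripts were tested on simulated data. Gene overlaps came from GENCODE vM21. Tables were handled in Python 3.11.15 (numpy 2.4.6, pandas 2.3.3), intervals came from scipy 1.17.1, plots from matplotlib 3.10.9, and scaling factors from R 4.3.3.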

Additional observations from a re-analysis of the deposited data

Results flagged for a closer look

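In 3 of 40 groups of 4 lanes, 1 lane lay far from the other 3 of its library, and chance alone marks about 1 in 20 such groups. Ccnd2 stood at 88.2 CPM in lane 3 of the control, with the other lanes at 92.1 to 92.9. Cdk4 stood at 356 CPM in lane 2 of the control, with the others at 364 to 365. Rb1 stood at 66.9 CPM in lane 3 of the 1.5 h library, with the others at 72.4 to 73.4.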

How the results depend on the processing

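No paired analysis was possible because the results come from no test and lanes of 1 index are technical repeats. Over 60 ratios of the 10 genes, TMM or DESeq2 factors moved none by more than 0.022 on the log2 scale and shifted the median of all genes by at most 0.021. None of the 42 ratios of at least 0.1 changed sign, except Ccnd2 at 5 h against 0.5 h on exon-exon reads (-0.17), an alternative added after the data were seen. The 2-fold call of Cdk6 at 5 h ended only at a 4-fold rule, which called 0 of the 10 genes higher. The share of all genes at 4-fold was not counted. Against control, the 1.5-fold rule called 1 of 9 higher at 0.5 h, 1 higher and 1 lower at 1.5 h, and 1 higher and 1 lower at 5 h. Of all genes it called 0.673% higher at 0.5 h, 3.37% higher and 1.99% lower at 1.5 h, and 2.21% higher and 2.98% lower at 5 h. On total gene reads the log2 ratio of Cdk6 at 0.5 h was 0.41 and that of Ccnd3 at 5 h -0.80, and on exon-exon reads Cdk6 was at 0.45 at 0.5 h and 0.71 at 1.5 h, Rbl2 at -0.46 at 1.5 h and Ccnd3 at -0.86 at 5 h. Cdk6 at 5 h against 0.5 h lost its 2-fold call on gene reads (0.94), and at 5 h against 1.5 h its 1.5-fold call (0.40); gene reads include those outside exons. The 1.5-fold call of Cdk6 at 0.5 h also ended with a pseudocount of 5 CPM (0.56), on unique reads (0.58) and without lane 4 (0.56). That of Cdkn1b at 1.5 h ended with a pseudocount of 5 CPM (-0.57) and without lane 1, 2 or 3, in each case at -0.58. Rbl2 at 1.5 h passed the 1.5-fold rule on gene reads (-0.61) and without lane 1 (-0.65), and on exon-exon reads Cdkn2c passed it at 1.5 h (-0.68) and Cdkn2d at 5 h (-0.70). The Ccnd3 share of D cyclins was 85.1% on unique reads and 88.1% without length in the control, and 71.9% and 76.1% at 5 h. The Cdk6 share of the kinases was 14.1% without length in the control, and 35.4% on unique reads and 37.8% without length at 5 h. Outside exons, Ccnd3 at 5 h changed sign when scaled to reads outside exons (-0.03), and Ccnd2 at 5 h without lane 4. Where no construction is given, the cause was not tested. Depth limits Ccnd1 and the reads outside exons of Cdk4, Cdkn1b and Cdkn2d, and 1 library per condition limits every comparison.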
